A study of Gallus gallus with 2 samples.

Results

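The genes described here are AMH, FOXL2, SOX9, DMRT1, GATA4, GATA6 and WT1, transcription factors and 1 hormone that mark or direct the ovarian and the testicular fate of the gonad. They were taken by name: every probe set whose only annotated gene symbol was one of these 7 was included. The array held 15 such probe sets, for 6 of the 7 genes among 13008 named genes. WT1 had no probe set under its symbol or gene ID in the annotation used and was not analysed here. The remaining members were FOXL2 (gene ID 503512, 1 probe set), AMH (395887, 4 probe sets), SOX9 (374148, 1), DMRT1 (769693, 7), GATA4 (396392, 1) and GATA6 (396390, 1).

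RNA came from the germinal disc region of maturing hen oocytes, the patch of the yolk surface where the oocyte nucleus lies. Hens of the Bx group had had their bursa of Fabricius, the organ in which birds form B cells, surgically removed at day 17 to 18 of incubation, and are described by the series as deficient in IgY, the main antibody of blood and yolk. Control hens are labelled only as control, and no strain, allele or sham operation is given. All birds were sampled at 25 weeks of age from yellow follicles F5 to F7, and each group was a single pool of 9 discs from 3 birds on 1 Affymetrix Chicken Genome Array. With 1 array per group the design holds no replicate, so no difference below has a test or a p-value, and variation between hens was not measured.

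In vertebrate gonads the supporting cells that surround the germ cells become granulosa cells in an ovary and Sertoli cells in a testis. FOXL2 is a forkhead transcription factor that maintains the granulosa fate, whereas SOX9, an HMG-box factor, drives Sertoli differentiation. DMRT1, a DM-domain factor encoded on the Z chromosome, directs testis formation in the chicken, where males carry a pair of Z chromosomes and females a single one. AMH is a hormone of the TGF-beta family that removes the Müllerian ducts in male embryos and is made by Sertoli cells and, in hens, by granulosa cells, most of all those of small follicles. The zinc finger factors GATA4 and GATA6 act in the somatic cells of both gonads in mice, and WT1 is needed for the gonad to form.

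Values are MAS5 signals, linear intensities in arbitrary units that were scaled to a common level on each array. A signal was called above background when it exceeded the array's floor, set at the 95th percentile of the 746 probe sets whose IDs lack both the chicken and the control prefix. That floor was 42.6 on the control and 36.4 on the other array. Of all chicken probe sets, 60.9% were above the floor on both arrays. Of all named genes, 78.2% were above it on both by their brightest probe set. Genes above it on both were divided into 4 brightness groups of 2542 genes each. The SD of the log2 ratio of Bx over control across genes was 0.49 in the dimmest, then 0.31, 0.21 and 0.15 in the brightest. These SDs stand in for an error here. They include any real difference between the pools. Probe sets bind their targets with different strength, so the signals of different genes are set against the floor and not against each other as amounts of RNA.

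FOXL2 was far above background in both pools. Its probe set had a signal of 20540 for control and 19164 for Bx discs. These are 482 and 526 times the floor of the respective array, and the signal was brighter than 99.8% and 99.7% of the chicken probe sets. The log2 ratio was -0.10, a 1.07-fold lower signal in the Bx pool, and 43.7% of the genes in the brightest group differed by at least as much. The 2 pools were thus closer in FOXL2 than the SD of 0.15 between genes of like brightness.

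The testis-type factors SOX9 and DMRT1 were close to the floor. SOX9 had a signal of 108 for control and 129 for Bx discs, 2.53 and 3.53 times the floor. Its log2 ratio was 0.26, which 57.2% of the genes in the dimmest group equalled or exceeded in size. The signal therefore stood above the floor on both arrays, and the 2 pools were not distinguishable at this brightness.

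DMRT1 was above the floor on 1 of its 7 probe sets. That probe set had a signal of 121 for control and 79.7 for Bx discs, 2.83 and 2.19 times the floor. The other 6 lay under the floor on both arrays, with signals between 2.81 and 29.3. Across the array 27.2% of chicken probe sets were under the floor on both arrays. The log2 ratio of the measured DMRT1 probe set was -0.60, a 1.51-fold lower signal in the Bx pool, which was just past the 1.5-fold line. In the dimmest group, 22.1% of the genes differed by at least as much, and the SD there was 0.49. With a pseudocount of 16 added to both signals the ratio was -0.51 and no longer past 1.5-fold.

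**Figure D1:**
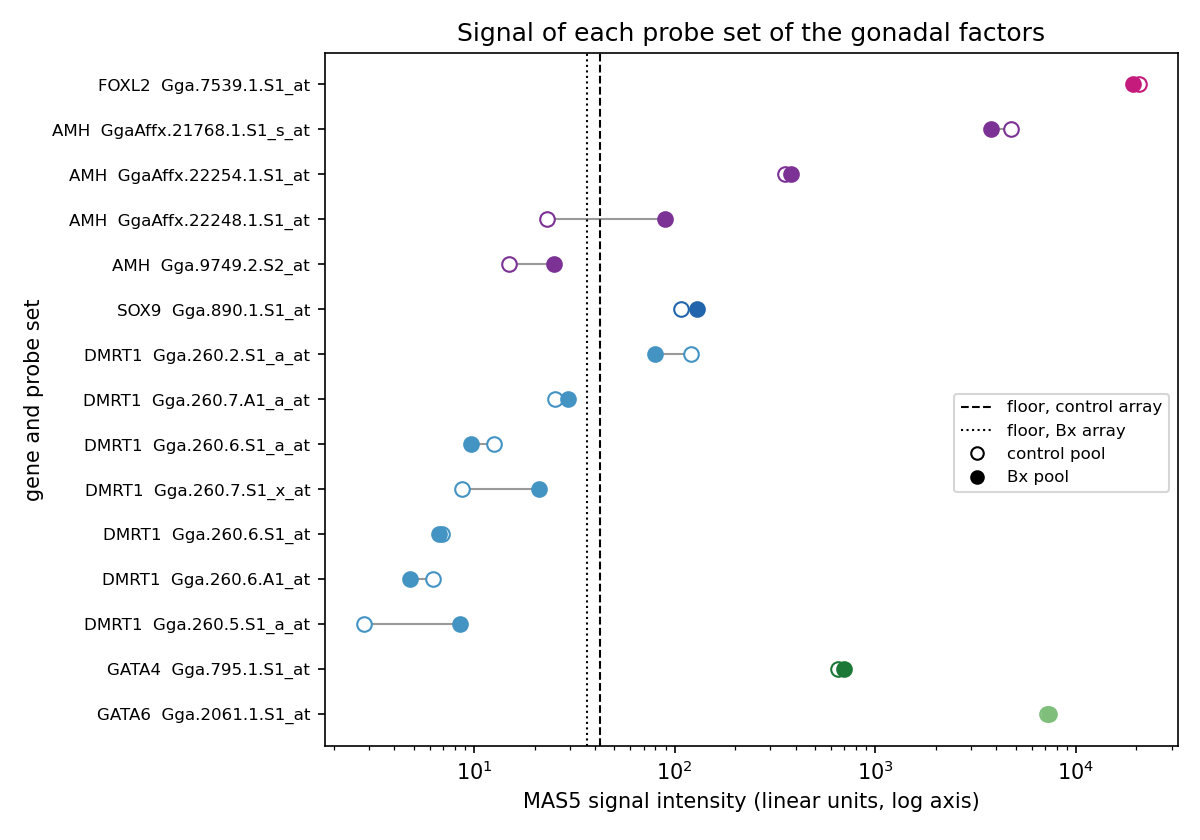
Signal of each of the 15 probe sets (rows) on a log axis in MAS5 units, with open points for the control pool, filled points for the Bx pool and vertical lines at the floor of each array. FOXL2, GATA4, GATA6 and the brightest AMH probe set lie far to the right of the floors, while SOX9 and 1 DMRT1 probe set lie just right of them and 6 DMRT1 probe sets lie to the left.

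Set side by side, FOXL2 was on the bright end of the array, and SOX9 and DMRT1 were near background. The wider lists described further on did not divide cleanly in this way. HEMGN of the testis pathway had 18207 for control and 18429 for Bx discs, while RSPO1 of the ovarian pathway was under the floor on both arrays. The only FOXL2 probe set was above the floor on both arrays, as were 2 of the 8 probe sets of SOX9 and DMRT1. Those 2 were 1 for each gene. The share was 60.9% over all chicken probe sets and 66.5% over those annotated with 1 symbol. Since 7 of the 8 belong to DMRT1, the count depends on the number of probe sets per gene. It does not compare ovarian with testis-type expression. The log2 ratios of the testis-type factors went opposite ways, 0.26 for SOX9 and -0.60 for DMRT1, with a mean of -0.17. The log2 ratio of FOXL2 minus that mean was 0.07. FOXL2 minus SOX9 was -0.36 and FOXL2 minus DMRT1 was 0.50, beside an SD of 0.49 over genes as dim as SOX9 and DMRT1. A shift between ovarian and testis-type factors was not detectable on these 2 arrays.

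AMH gave a different picture on each of its probe sets. The brightest had a signal of 4764 for control and 3757 for Bx discs, 112 and 103 times the floor. Its log2 ratio was -0.34, a 1.27-fold lower signal in the Bx pool. Among genes of the brightest group, 2.64% differed by at least as much, and the difference exceeded both the SD over those genes (0.15) and the SD between probe sets of one gene in that group (0.24).

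The other AMH probe sets did not share that direction. The next brightest had signals of 354 (control) and 380 (Bx), a log2 ratio of 0.10, which 70.8% of the genes of its brightness group equalled or exceeded. Another was under the floor on the control array (23.0) and above it on the Bx array (89.9), which makes it at least 2.11-fold brighter for Bx against the control array's floor. The last was under the floor on both arrays, at 15.0 and 24.9. The mean log2 ratio of the 2 probe sets above the floor was -0.12 ± 0.32 (SD between probe sets), so the direction of AMH rests on its brightest probe set. Probe sets that disagree in direction were common: of 4870 genes with more than 1 probe set over the floor, 54.5% had some on either side of 0. The name of the brightest AMH probe set ends in _s_at, a suffix for probe sets that can match several transcripts.

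AMH and FOXL2 are both granulosa genes in the hen, and most other granulosa genes had ratios on the same side of 0 as the brightest AMH probe set. All 13 genes of the granulosa cell list, which holds FOXL2 but not AMH, were above the floor on both arrays, beside 78.2% of all named genes. Of the 13 granulosa genes 11 were dimmer on the Bx array, as were 47.6% of all measured genes. The median log2 ratio of the 13 was -0.19 against 0.01 over all genes. Their summed signal was 119128 for control and 109584 for Bx discs. The inhibin beta B gene INHBB had a log2 ratio of -0.58, INHBA -0.45 and STAR -0.39. The steroid-forming enzyme gene CYP11A1 had -0.34 and the FSH receptor gene FSHR -0.27. INHA (-0.02), ZP3 (-0.03) and FST (-0.01) were close to 0. NR5A1 (0.09) and KITLG, the gene of the KIT ligand (0.41), were brighter on the Bx array. None of the 13 was past 1.5-fold on its brightest probe set. That line was passed by 7.74% of all genes and by 0.354% of the brightest group, which holds 10 of the 13. Dimmer probe sets of INHBB (-0.72) and NR5A2 (-0.79) were past it downward, and the means over their probe sets were -0.65 and -0.66. The oocyte markers described further on had a median log2 ratio of 0.14. In pooled tissue, fewer cells of a type and less RNA per cell cannot be told apart. The part of the granulosa and oocyte content in the AMH value was not tested.

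GATA4 and GATA6 were nearly equal between the pools. GATA4 had a signal of 651 for control and 695 for Bx discs, 15.3 and 19.1 times the floor, with a log2 ratio of 0.09. For GATA6 the signals were 7201 and 7302, 169 and 201 times the floor, with a log2 ratio of 0.02. Both ratios were small for their brightness: 73.1% of the genes in the group of GATA4 and 88.2% of those in the group of GATA6 differed by at least as much. The sign of the GATA6 ratio was not settled, since it was -0.0063 with the arrays centred on their medians.

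Over the 6 measured genes, 3 were brighter and 3 dimmer for Bx than for control discs, with a median log2 ratio of -0.04. DMRT1 was the 1 gene of 6 past 1.5-fold, against 7.74% of all 10168 genes above the floor on both arrays and 22.9% of those in the dimmest group, to which DMRT1 belongs. By direction, 4.11% of all genes were past 1.5-fold with the higher value on the Bx array and 3.63% with the lower, and in the dimmest group 11.4% were past it with the lower. On their brightest probe sets none of the 6 was past 2-fold, which 1.06% of all genes were. The AMH probe set above the floor on the Bx array only, at least 2.11-fold brighter there, was not counted.

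**Figure D2:**
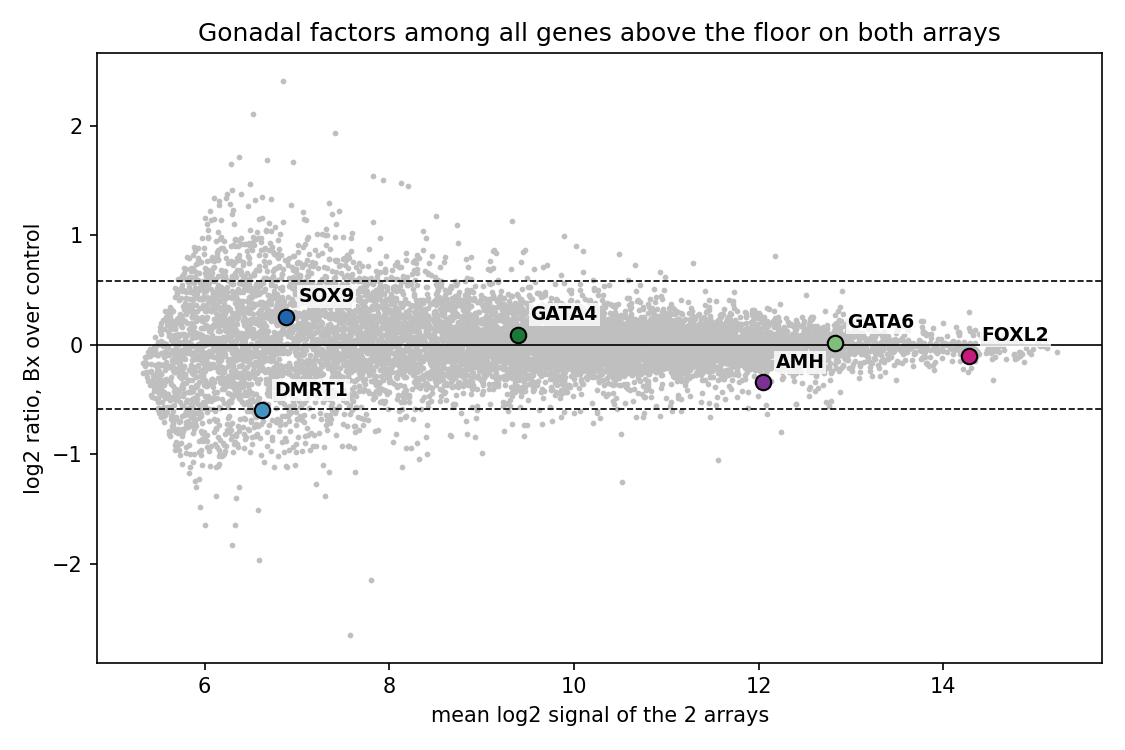
Log2 ratio of Bx over control against the mean log2 signal of the 2 arrays, for the 10168 genes above the floor on both arrays (grey) and the 6 measured gonadal factors (coloured), with dashed lines at 1.5-fold. SOX9 and DMRT1 lie inside the wide cloud of dim genes, GATA4, GATA6 and FOXL2 close to 0, and AMH at -0.34 near the lower edge of the cloud at its brightness.

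Genes that act with FOXL2 in the ovarian pathway included WNT4, CTNNB1 and FST, which were in the brightest group with log2 ratios close to 0. Of 12 genes of this list 11 were on the array and 8 were measured, FOXL2 included. Past 1.5-fold were 0 upward on the Bx array and 1 downward, beside 3.63% of all genes downward. The median log2 ratio was 0.0036. WNT4, a secreted signal of ovarian development, had a signal of 8881 for control and 9264 for Bx discs (log2 ratio 0.06), and CTNNB1, its intracellular effector beta-catenin, 9754 and 9895 (0.02). FST, follistatin, which binds activin, had a log2 ratio of -0.01. ESR2 had 0.27 and ESR1, the other estrogen receptor gene, -0.01. BMP2, a ligand of the TGF-beta family, was at 0.24. The gene past 1.5-fold was RUNX1, a factor of the supporting cells of the fetal ovary in mice, which went from 357 to 203 (1.76-fold lower). Its second probe set had signals of 112 and 110, and the mean over both was -0.42 ± 0.56 (SD).

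CYP19A1, the aromatase that makes estrogens and a target of FOXL2, had a signal of 4.46 for control discs, under the floor, and 37.5 for Bx discs, just over the floor of that array and under that of the control array, so that no fold is given. RSPO1, an enhancer of WNT signals, was under the floor on both arrays. IRX5 was above it on the Bx array only, at 41.0, which is under the floor of the control array, and had 31.1 for control discs. Its second probe set had 27.3 for control and 1.34 for Bx discs, under the floor on both arrays.

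Among 14 genes of the testis pathway 13 were on the array and 11 measured. Of these 0 were past 1.5-fold upward and 3 past it downward on the Bx array, with a median log2 ratio of 0.02. HEMGN, a nuclear protein gene that, like DMRT1, lies on the Z chromosome and takes part in testis formation in the chicken, was among the brightest on the array. Its signal was 18207 for control and 18429 for Bx discs, a log2 ratio of 0.02. CLDN11, a tight junction gene of Sertoli cells, was also well above the floor, at 1772 and 1900 (log2 ratio 0.10).

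SOX8 and SOX10 belong to the same SOX subgroup as SOX9. SOX8 had signals of 199 and 175, a log2 ratio of -0.19, and SOX10 had 71.7 and 38.3, a 1.87-fold lower signal in the Bx pool, close to that array's floor. FGF9, a signal that sustains SOX9 in the mouse testis, was at 138 and 182 (log2 ratio 0.40). FGFR2, its receptor, had a log2 ratio of 0.16. The largest difference on the list was in CYP26B1, an enzyme that breaks down retinoic acid, at 114 for control and 36.4 for Bx discs. That second value equals the floor to 3 digits, and another CYP26B1 probe set had 10.8 and 41.2. The genes of this list past 1.5-fold on their brightest probe sets, DMRT1, SOX10 and CYP26B1, were all downward and in the dimmest group. In that group 11.4% of genes were past it downward and 22.9% either way, and over all genes 3.63% were past it downward.

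Shared factors of gonad formation included the partners of GATA4, GATA6 and WT1. Of 16 genes 11 were on the array and 9 measured, with 0 past 1.5-fold upward, 1 past it downward and a median log2 ratio of 0.0054. Past it downward were 3.63% of all genes and 11.4% of the dimmest group, which holds that 1 gene. NR5A1, the nuclear receptor that switches on steroid synthesis genes and AMH in mammals, had a signal of 7568 for control and 8033 for Bx discs (log2 ratio 0.09). NR0B1, its antagonist DAX1, was at 7333 and 8287 (0.18). ZFPM2, the cofactor FOG2 that GATA4 needs in the mouse gonad, had 1290 and 1261 (-0.03). EMX2, a homeobox gene of the early gonad, had 1844 and 1731 (-0.09), and a dim second probe set gave it a mean of -0.53 ± 0.62 (SD). CBX2, a Polycomb gene, had -0.30.

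ZFPM1, the cofactor FOG1, was the one past 1.5-fold, at 93.9 for control and 38.1 for Bx discs (2.46-fold lower). Another probe set of ZFPM1 went the other way, from 36.8, under the floor, to 62.3. NR5A2, a nuclear receptor related to NR5A1 and counted here with the granulosa genes, had 6526 for control and 4496 for Bx discs, a log2 ratio of -0.54.

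**Figure D3:**
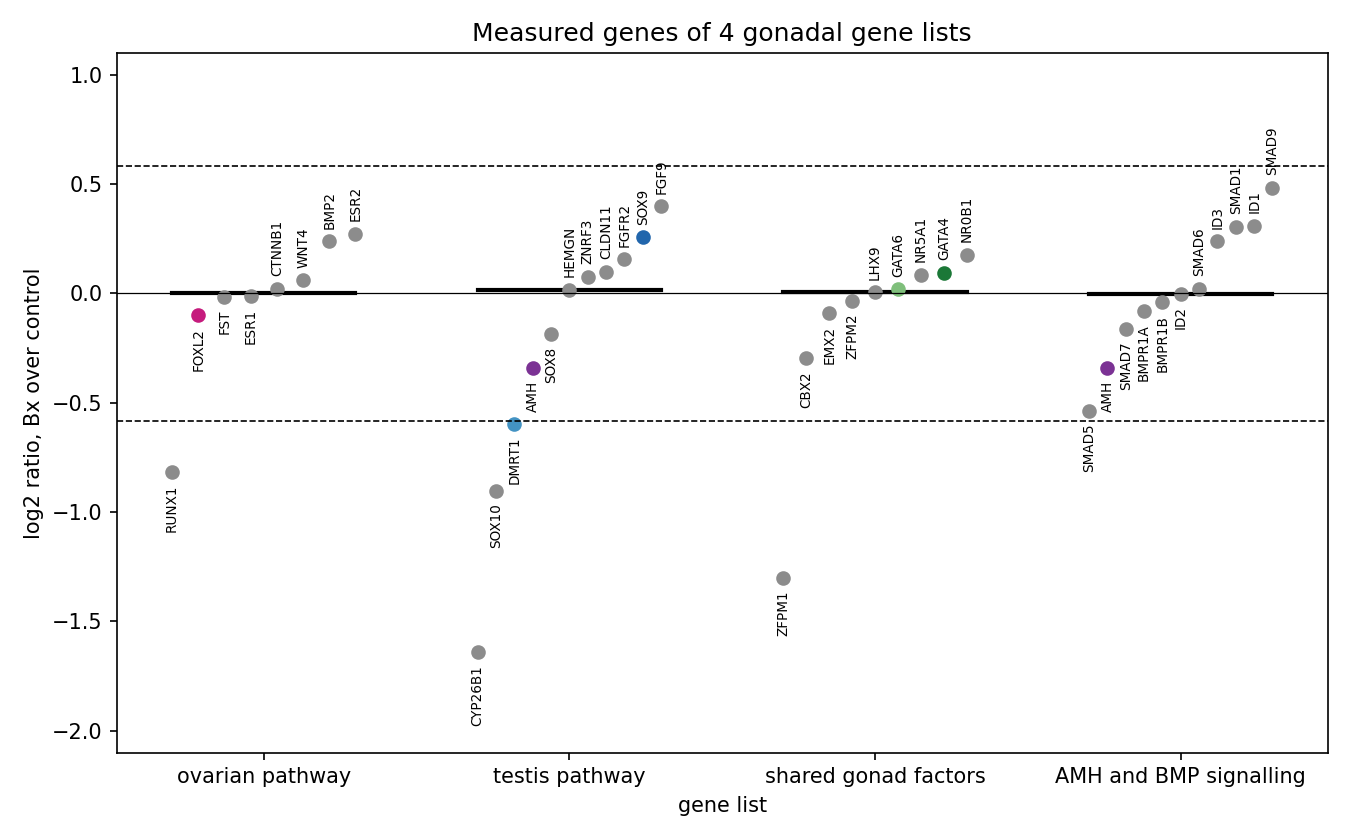
Log2 ratio of Bx over control for each measured gene of 4 gene lists, with the member genes in colour, a bar at each list's median and dashed lines at 1.5-fold. The 4 medians lie between -0.00017 and 0.02, and the genes below the lower dashed line are RUNX1, CYP26B1, SOX10, DMRT1 and ZFPM1.

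AMH acts on cells through AMHR2 and the type I receptors and SMAD proteins that also serve bone morphogenetic proteins. AMHR2, ACVR1 and SMAD4 had no named probe set and were not analysed here. The other 11 of the 14 genes were measured, beside 78.2% of all named genes. None of the 11 was past 1.5-fold either way, and their median log2 ratio was -0.00017. Past that line were 7.74% of all genes and 0.354% of the brightest group, which holds 7 of the 11. The type I receptor genes BMPR1A and BMPR1B were at -0.08 and -0.04. The 3 receptor-activated SMAD genes did not go one way: SMAD5 did not reach 1.5-fold at 6537 for control and 4505 for Bx discs (-0.54), while SMAD1 had 653 and 807 (0.31) and SMAD9 155 and 217 (0.48). The 2 SMAD5 probe sets were close to each other, with a mean of -0.52 ± 0.02 (SD), and 0.629% of the genes in the brightest group differed by at least as much as the brighter one.

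The ID genes are direct targets of these SMAD proteins. ID1 had a signal of 6054 for control and 7502 for Bx discs (log2 ratio 0.31) and ID3 2059 and 2427 (0.24). ID2 was at 18339 and 18337 on its brightest probe set. The 4 probe sets of ID2 did not all go one way, with a mean of 0.06 ± 0.25 (SD). The inhibitory SMAD genes SMAD6 and SMAD7 had log2 ratios of 0.02 and -0.16. Against the SD of 0.15 of the brightest group, the brightest probe sets of ID1, ID3, SMAD5 and SMAD7 differed by more. Those of ID2 and SMAD6 differed by less. Of the genes in that group, 4.01% differed by at least as much as ID1, 9.21% as ID3 and 23.2% as SMAD7.

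Relatives of the members were mostly dim. Of the 17 GATA, SOX, DMRT and FOXL genes 12 were on the array and 8 measured, beside 78.2% of all named genes. Of the 8, 5 are the members themselves, and the others were SOX8, SOX10 and GATA3. Past 1.5-fold were 0 upward and 3 downward (GATA3, SOX10 and DMRT1, all in the dimmest group). The downward share was 3.63% over all genes and 11.4% in the dimmest group. The median log2 ratio was -0.14, and it was 0.02 under the stricter floor described with the alternatives. GATA3, a factor of T cells and epithelia, was at 139 and 87.2 (1.60-fold lower in the Bx pool). GATA2 was under the floor for control discs (21.9) and at 46.7 for Bx discs, and GATA5 was under it on both arrays. DMRT3, a neighbour of DMRT1 on the Z chromosome, had 25.8 for control and 81.5 for Bx discs, which is at least 1.91-fold brighter. That fold rests on 1 of its 3 probe sets. The others had 29.0 and 37.1, and 7.08 and 16.2, for control and Bx discs. DMRTB1 had 4.06 and 37.3, too close to the floor for a fold. Among 8 genes tied to WT1, 6 were on the array and 5 measured, with a median of -0.02. Of these 0 were past 1.5-fold, beside 7.74% of all genes either way. WTAP, a binding partner of WT1, had -0.18, BASP1, its corepressor, -0.08 and WTIP 0.15.

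The samples are labelled as oocyte, and the markers listed for the cell types of the follicle were set against the floor. Of 14 oocyte markers 12 were on the array and 11 measured, led by DAZL, which encodes an RNA-binding protein of germ cells (2743 for control and 3027 for Bx discs), and ZP2 (2089 and 1952). A second ZP2 probe set went the other way, from 616 to 929. DDX4 (43.6 and 70.6), ZP1 (44.8 and 68.2), GDF9 and BMP15 were near the floor, and KIT was under it. Whether the ZP1 signal came from the oocyte was not tested. The summed signal of the oocyte list was 6373 for control and 7077 for Bx discs, and its median log2 ratio was 0.14. That median was 0.25 with the mean over probe sets and 0.23 without _x_at and _s_at probe sets. Past 1.5-fold were 3 of 11 genes upward (GTSF1 of the piRNA pathway, DDX4 and ZP1) and 0 downward, beside 4.11% of all genes upward. DDX4 and ZP1 were in the dimmest group, where 11.5% of genes were past it upward, and GTSF1 in the next, where 4.17% were. In the granulosa list 10 of the 13 genes were in the brightest group. Theca, fibroblast and smooth muscle markers were measured for 7 of 10 genes (summed signal 6642 and 6212), most of that sum being LHCGR, which granulosa cells also express. The collagen genes COL1A2 (1340 and 1364) and COL3A1 (211 and 168) were well above the floor on their brightest probe sets. On both arrays 3 of 8 COL1A2 and 2 of 6 COL3A1 probe sets were above it, whereas COL1A1 was under it. The theca enzyme gene CYP17A1 was at 58.7 and 110 and the stromal receptor gene PDGFRA at 86.6 and 44.6. ACTA2, smooth muscle actin (72.9 and 7.02), and DCN, the matrix protein decorin (57.8 and 3.79), were above the floor on the control array only. Endothelial markers were measured for 5 of 7 genes (sums 595 and 595) and leukocyte markers for 4 of 8 (3630 and 2878, most of it CD74). Of 10 erythrocyte markers only 4 were on the array, and 2 of these were measured (sums 269 and 236). The summed signals cover the brightest probe set of every list gene on the array, genes under the floor included. PTPRC, the common leukocyte antigen, was under the floor on both arrays, as were CD4 and SPI1. The leukocyte markers CXCR4 (294 and 397), CD8A (67.0 and 77.8) and CSF1R (65.1 and 67.8) were above it on both, on their brightest probe sets. CD3E was above it on the Bx array only, at 72.0 against 6.25 for control discs.

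Sertoli cell markers shared their measured genes with the testis pathway. Of 7 genes 5 were measured, AMH, HEMGN, CLDN11, SOX9 and DMRT1, with summed signals of 24971 and 24294 and a median log2 ratio of 0.02. HEMGN, AMH and CLDN11 were far above the floor in both pools, and SOX9 and DMRT1 lay within 4 times the floor. DHH and GATA1 had no named probe set and were not analysed here.

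The member genes lie on different chromosomes. In the chicken assembly GRCg7b the protein-coding genes on either side of FOXL2 are PIK3CB, a lipid kinase gene at 160 for control and 108 for Bx discs (log2 ratio -0.56), and MRPS22, a mitochondrial ribosome gene at 4104 and 3731 (-0.14). DMRT1 lies between DMRT3 and KANK1, and KANK1 had 74.0 and 79.2 (0.10). KCNJ2 and SLC39A11 flank SOX9, at -0.21 and 0.05, and MIB1 and RBBP8 flank GATA6, at -0.18 and -0.06. Beside GATA4, NEIL2 had 0.29 and BLK was under the floor on both arrays. The genes beside AMH had no named probe set and were not analysed here.

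The ratios of the members were recomputed under 8 other ways of processing the signals. AMH ranged from -0.37 to 0.10 and DMRT1 from -0.63 to -0.51, while the range of each of the others was narrower than 0.1 log2 units. Several settings cannot alter the ratio of a gene with 1 probe set above the floor, so these ranges are narrow in part by construction.

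**Figure D4:**
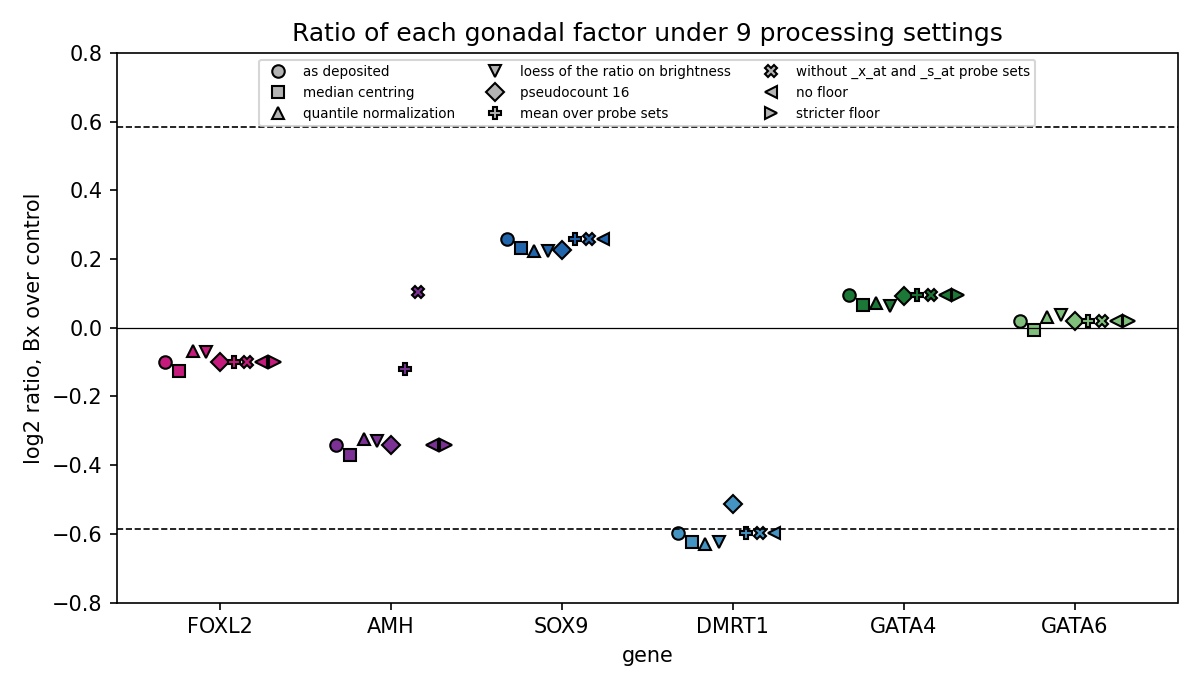
Log2 ratio of Bx over control for the 6 measured genes under 9 processing settings, 1 symbol per setting, with dashed lines at 1.5-fold. FOXL2, SOX9, GATA4 and GATA6 lie in narrow bands, DMRT1 lies at the lower line, and AMH is at 0.10 instead of -0.34 when its _s_at probe set is left out.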

How the data were processed

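Each group's pooled total RNA (100 ng) was biotin-labelled with a 3' IVT kit for 1 array, per the labels' protocols. The deposited table gives a linear signal intensity per probe set, produced by the authors with MAS5 according to the submitters' processing notes. Version and scaling target: not given in the sources used here. Leaving out the top and bottom 2%, both arrays averaged 499.95.

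Intensities were log2-transformed as deposited, without a pseudocount. Gene symbols came from the GEO annotation of the platform, which can be old: of 37693 chicken probe sets 27166 had 1 symbol, 177 several and 10350 none. Of the first, 98.8% matched the RefSeq table (GRCg7b) in gene ID and symbol. The 746 probe sets with neither the chicken nor the control prefix set the floor, and 96 control probe sets were left out. Each gene is represented by its brightest probe set. No sequences were used here.

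The members, the 13 gene lists (130 genes, 107 on the array) and the alternatives were chosen with earlier results of these data known. Named were all member probe sets, list genes past 1.5-fold, up to 4 further genes per list and 10 fixed genes. Neighbouring genes, SMAD and ID genes and some markers were added after their values were seen. The functions were tested on simulated data (Python 3.11.15, statsmodels 0.14.6).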

Additional observations from a re-analysis of the deposited data

How the results depend on the processing

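The 6 member ratios were recomputed under 8 alternatives (median centring, quantile normalization, loess with a fraction of 0.3, a pseudocount of 16, the mean over probe sets, no _x_at and _s_at probe sets, no floor, and a stricter floor, the 75th percentile of chicken probe sets). Of 46 values 44 kept their sign, but many could not change. A different floor leaves the ratio of a probe set as it is. For genes with 1 probe set above the floor, the 2 probe set settings read the same value again. The exceptions were AMH without _x_at and _s_at probe sets, at 0.10, where a different probe set is read, and GATA6 after median centring, at -0.0063. Across settings FOXL2 lay between -0.13 and -0.07, SOX9 between 0.22 and 0.26, GATA4 between 0.06 and 0.09, and DMRT1 between -0.63 and -0.51. FOXL2 minus the mean of SOX9 and DMRT1 lay between 0.04 and 0.14. Under the stricter floor SOX9 and DMRT1 had no value.

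The counts over all genes moved most with the floor. Past 1.5-fold, 418 genes were higher and 369 lower in the Bx pool, against 1412 and 1336 with no floor and 21 and 29 with the stricter one. Past 2-fold, 65 were higher and 43 lower, against 769 and 740 with no floor, 0 and 2 with the stricter floor, 37 and 19 with the pseudocount, and 7 and 6 at a threshold of 3-fold. No paired analysis was possible because each group was 1 array.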

Other observations

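A probe set of design cluster 260, the cluster number carried by all 7 probe sets annotated as DMRT1, is annotated as CCDC86. It had signals of 1209 (control) and 1131 (Bx), a log2 ratio of -0.10, while the brightest DMRT1 probe set had 121 and 79.7. It was not counted with DMRT1, and which transcript it detects was not tested.

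The protein-coding neighbours of WT1 in GRCg7b, RCN1 and EIF3M, had log2 ratios of -0.10 and 0.16.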
